A study of Mus musculus with 5 samples.

Results

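The troponin complex is the calcium switch of striated muscle, and 8 mouse genes encode its subunits in slow, fast and cardiac forms. These genes (Tnnc1, Tnnc2, Tnni1, Tnni2, Tnni3, Tnnt1, Tnnt2 and Tnnt3) were chosen by name, out of 12393 genes that an annotated probe set (the array's group of short probes for a transcript) measured alone. All 8 were on the array, with 11 probe sets annotated to exactly 1 of them among 22626, and each gene is given by the probe set with the highest mean signal over the arrays. The arrays followed a dilution of C57BL/6 mouse RNA. Whole mice aged 1 day gave the first pool and colons of mice aged 8 weeks the second, each from multiple animals. The mixes held 0%, 25%, 50%, 75% or 100% colon RNA, and 10 ng of each was amplified by a double round of T7 transcription and hybridised to 1 Affymetrix mouse array. No mix had a replicate array here, and the pools differed in age as well as in tissue. Signals are the authors' log2 values from RMA, and each run of 5 signals goes from whole mouse to undiluted colon.

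Troponin sits on the thin filament of skeletal and heart muscle at regular steps along tropomyosin. Troponin C binds calcium, troponin I holds the actomyosin ATPase off at rest, and troponin T ties the complex to tropomyosin. Calcium binding to troponin C pulls troponin I away from actin, tropomyosin shifts, and myosin heads can attach. Tnnc2, Tnni2 and Tnnt3 encode the fast skeletal forms, Tnni1 and Tnnt1 the slow skeletal forms, Tnni3 and Tnnt2 the cardiac forms, and Tnnc1 the form that slow muscle and heart share. The fetal heart also makes Tnni1 and replaces it by Tnni3 around and after birth, and developing skeletal muscle makes some Tnnt2. Smooth muscle, which forms the wall of the colon, regulates contraction mainly through calmodulin and myosin light chain kinase and has no troponin complex of this kind. The genes for troponin I and T lie in neighbouring pairs. In the RefSeq annotation of GRCm38.p6, Tnni3 and Tnnt1 on chromosome 7 have no protein-coding gene starting between them. Tnni1 and Tnnt2 on chromosome 1 are separated by Lad1 alone, and Tnni2 and Tnnt3 on chromosome 7 by Lsp1 alone. Tnnc1 is on chromosome 14 and Tnnc2 on chromosome 2.

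All 8 troponin genes were at least 4-fold lower in undiluted colon than in the newborn, a difference seen in 4.37% of all genes, and the signal of each was lower at every step of the dilution. Such a strict order over the 5 arrays occurred in 12.1% of all genes. The slow and cardiac genes fell past the test's threshold, 5 of 5, whereas the fast genes dropped by more between the undiluted arrays but did not pass, 0 of 3 (unadjusted limma p of 0.0441, 0.0263 and 0.0298 for Tnnc2, Tnni2 and Tnnt3). Tnni1, the slow inhibitory subunit, kept 23.6% of its newborn intensity in colon, and Tnnc2, the fast calcium-binding subunit, kept at most 0.285%, the level of the highest Bacillus control (a probe set for a transcript that mice lack) on the colon array. The test was limma's regression of log2 signal on colon share, Benjamini-Hochberg adjusted over all probe sets, in which 14.5% of all genes fell past an adjusted p of 0.05. In log2 the dilution of a transcript nearly absent from colon is a curve, which a straight line fits poorly. Tnnc1 passed with a measured 0.794% of its intensity in colon, and Tnnt3 did not pass with 0.699%. The part of this curve in the split of 5 of 5 and 0 of 3 was not tested, and the split is no comparison of muscle types. Fitted on linear intensity, 8 of 8 passed, where 10.9% of all genes fell past the threshold. The median fitted difference of the 8, colon minus whole mouse, was −5.69 log2, against −0.01 over all genes. Since every mix was made from the same 2 pools, a p-value here reflects technical spread and curvature and carries nothing of the variation between mice. In whole-tissue RNA, fewer muscle cells and less troponin RNA per cell cannot be told apart.

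The labelled tissues were checked against markers. All 7 measured colon epithelium markers were at least 4-fold higher in the colon RNA, with colon signals of 9.49 to 14.04. All 5 measured skeletal muscle markers and all 4 heart markers were at least 4-fold lower there, with colon signals of 4.41 to 8.19 and 4.27 to 7.43. In the lists of contraction genes described later, 2 of the skeletal muscle markers, 3 smooth muscle markers and all 4 heart markers recur. Of the 14 cardiac genes listed there, 5 were at least 4-fold lower in colon. The 5 liver markers were at least 4-fold lower as well (colon signals of 5.34 to 10.08), so such a fall was not limited to muscle genes. Of 6 smooth muscle markers, 3 were at least 4-fold higher in colon, with colon signals of 11.13 to 13.27 over the 6, and 1 was lower (Des, 11.53 in whole mouse and 11.13 in colon, named after its values were seen). Beside these marker counts, 4.37% of all genes were at least 4-fold lower in colon, and the share at least 4-fold higher was not counted. Array medians were close (6.83 to 6.92 log2). The array with 25% colon stood apart in its hybridisation controls: all 18 of these probe sets were highest there, with a median of 0.65 log2 above the mean of the other arrays. Without that array the slopes of the 8 genes ran from −7.36 to −1.95, and 2 of the 8 passed (Tnni1 and Tnni3), where 9.87% of all genes fell past the threshold.

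**Figure D1:**
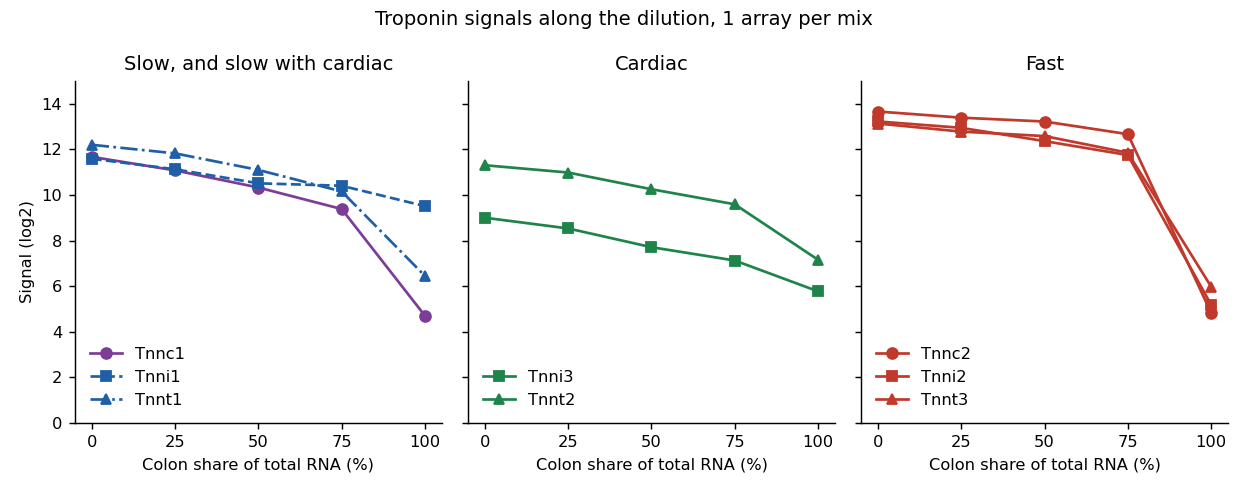
Signal (log2, vertical axis) of each troponin gene on the 5 arrays, by colon share of total RNA (%, horizontal axis); each point is 1 array, in panels for the slow, cardiac and fast forms. The fast genes stayed above 11.7 up to 75% colon and dropped to between 4.83 and 5.98 in undiluted colon, while Tnni1 ended at 9.51.

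Troponin C has a form for slow muscle and heart and another for fast muscle. The promoters of both are shown because their signals took different paths through the mixtures. Each stretch is the 250 bases before the RefSeq start in GRCm38.p6, 5′ to 3′, and capitals mark matches to the motifs searched, which are described with the slow pair's promoters. Tnnc1 lies on the plus strand (chr14:31208062-31208311) and Tnnc2 on the minus strand (chr2:164779735-164779984).
Tnnc1: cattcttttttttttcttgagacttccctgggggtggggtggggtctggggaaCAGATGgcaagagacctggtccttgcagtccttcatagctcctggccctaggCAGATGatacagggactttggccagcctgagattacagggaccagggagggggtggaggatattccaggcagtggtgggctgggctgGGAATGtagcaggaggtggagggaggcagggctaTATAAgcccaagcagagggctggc
Tnnc2: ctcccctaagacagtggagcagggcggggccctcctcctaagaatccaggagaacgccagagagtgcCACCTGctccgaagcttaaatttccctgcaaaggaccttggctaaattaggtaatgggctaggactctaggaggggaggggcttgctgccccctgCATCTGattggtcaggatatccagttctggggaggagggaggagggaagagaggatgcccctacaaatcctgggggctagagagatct

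Tnnc1, the calcium sensor of slow and cardiac fibres, had signals of 11.67, 11.08, 10.33, 9.38 and 4.70. The first 4 arrays dropped in near-even steps, and from the 75% mix to undiluted colon the signal dropped by 4.69 log2. The fitted fall was −6.26 log2 (SE 1.45, limma adjusted p = 0.0437). Tnnc2, the calcium sensor of fast fibres, had 13.66, 13.39, 13.22, 12.67 and 4.83. Its mixtures all lay within 1 log2 of the whole mouse array, and the drop from 75% to undiluted colon was 7.84 log2. Between the undiluted arrays Tnnc2 differed by 8.84 log2, a 457-fold difference and the largest fall among the 12393 genes, given as a size with no test. Its fitted fall was also the steepest of all genes at −7.36 log2, with an SE of 2.74 and a limma adjusted p of 0.132, so it did not pass. The colon signals of Tnnc1 and Tnnc2 lay below 5.21, the highest of 27 Bacillus control probe sets on that array, so both falls are sizes against signals not above the controls. Measured to that control, Tnnc1 was at least 88.4-fold and Tnnc2 at least 351-fold lower in colon. With the colon signals of all genes limited in this way, the fall of Tnnc2 still ranked 1.

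Troponin I, the inhibitory subunit, gave the widest spread among its forms. Tnni2, the fast form, had 13.23, 12.95, 12.36, 11.75 and 5.18. Its colon signal also lay below the highest Bacillus control, and the undiluted arrays differed by 8.04 log2 (264-fold), the fourth largest fall of all genes, or at least 260-fold when measured to that control. The fitted fall was −6.91 log2 (SE 2.21, limma adjusted p = 0.0922). Tnni3, the adult cardiac form, had 9.0, 8.53, 7.71, 7.12 and 5.77. It dropped by between 0.47 and 1.35 log2 at each step, and the undiluted arrays differed 9.39-fold. The fitted fall was −3.15 log2 (SE 0.28, limma adjusted p = 0.00605), and Tnni3 passed also without each of the 5 arrays in turn (limma adjusted p from 0.0291 to 0.0352). None of the other 7 genes passed in all of those fits.

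Tnni1, the slow form, had 11.59, 11.13, 10.51, 10.40 and 9.51. It was lower at every step, but its undiluted arrays differed only 4.23-fold, the smallest difference of the 8. The fitted fall was −1.95 log2 (SE 0.20, limma adjusted p = 0.00778), and its undiluted difference ranked 510 among the falls of all genes. Its colon signal exceeded those of 86.3% of probe sets on the colon array, compared with 14.2% to 55.9% for the other 7 troponins. The striated muscle markers, read on the same array, were at 4.27 to 8.19, and their part in the Tnni1 signal was not tested. Limma's adjusted p for Tnni1 rose to 0.0560 without the whole mouse array and 0.0576 without the colon array. A single probe set measured Tnni1, so no other probe set bears on its colon signal.

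The promoters of the slow genes Tnni1 and Tnnt1 are shown because the former kept the largest share of its signal in colon among the 8 genes and the latter lost nearly all of it. The window of Tnni1 is on the plus strand (chr1:135799171-135799420, the first of a pair of overlapping RefSeq starts) and that of Tnnt1 on the minus strand (chr7:4515976-4516225).
Tnni1: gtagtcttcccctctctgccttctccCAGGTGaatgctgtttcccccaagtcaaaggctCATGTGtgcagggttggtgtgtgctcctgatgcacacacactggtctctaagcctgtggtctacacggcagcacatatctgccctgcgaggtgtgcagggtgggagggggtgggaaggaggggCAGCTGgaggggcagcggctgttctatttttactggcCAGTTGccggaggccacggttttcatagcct
Tnnt1: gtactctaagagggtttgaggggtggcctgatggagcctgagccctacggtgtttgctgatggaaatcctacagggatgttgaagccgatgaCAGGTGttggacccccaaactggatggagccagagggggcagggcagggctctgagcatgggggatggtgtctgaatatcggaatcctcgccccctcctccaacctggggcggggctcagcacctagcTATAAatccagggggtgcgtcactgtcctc
Both strands were searched for the E-box CANNTG, the MCAT element CATTCC, the TATA box core TATAA, the MEF2 site and the CArG box. RefSeq windows were at hand for 6 of the genes, all but the fast genes Tnni2 and Tnnt3, with 8 starts in all. No matches of different motifs overlapped. E-boxes, the letters that myogenic factors such as MyoD bind, were in 8 of 8 windows, against 66.2% of 32851 mouse promoter windows of the same length. Tnni1 held 4 of them in the window shown and Tnnt1 held 1. The other Tnni1 window overlaps the one shown and its E-boxes lie in that one as well, so the 8 windows are not separate. The MCAT element was in 2 of 8 windows, those of Tnnc1 and Tnnt2 (12.6% of all windows), and TATAA in 3 of 8, those of Tnnc1, Tnnt1 and Tnnt2 (22.8%). MEF2 and CArG matches were in 0 of 8, against 2.92% and 1.47% of all windows. These matches describe letters and do not show binding.

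Troponin T, which anchors the complex to tropomyosin, passed in its slow and cardiac forms but not in its fast form. Tnnt3, the fast form, had 13.14, 12.78, 12.58, 11.85 and 5.98. The undiluted arrays differed by 7.16 log2 (143-fold), of which 5.88 log2 lay between 75% and undiluted colon. The fitted fall was −6.10 log2 (SE 2.02, limma adjusted p = 0.100). Tnnt1, the slow form, had 12.20, 11.83, 11.10, 10.15 and 6.45. It kept 1.85% of its intensity in undiluted colon, a 54.0-fold difference, and its fitted fall was −5.27 log2 (SE 1.15, limma adjusted p = 0.0381). Tnnt2, the cardiac form, had 11.30, 10.98, 10.25, 9.59 and 7.15. The undiluted arrays differed 17.7-fold, and the fitted fall was −3.88 log2 (SE 0.70, limma adjusted p = 0.0250).

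Tnnt2 and Tnni2 had further probe sets. The other probe set of Tnnt2 gave nearly the same signals (11.31, 11.13, 10.41, 9.45 and 6.96) and passed as well (fitted fall −4.16 log2, limma adjusted p = 0.0266). The probe set used for Tnnt2 carries the suffix x, which the manufacturer gives to sets with probes that may match other transcripts. For Tnni2, a set with that suffix had 12.12, 11.79, 11.39, 11.01 and 6.75 and did not pass (−4.60 log2, limma adjusted p = 0.0822). The third set of Tnni2 was dim, with 6.27, 5.59, 5.16, 4.66 and 4.22, and passed (−2.02 log2, limma adjusted p = 0.00392). Thus the 3 Tnni2 sets gave slopes from −6.91 to −2.02, all downward, and the choice of set decided whether Tnni2 passed.

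On the linear scale the same data can be set against the known mixing. If colon held none of a transcript, the mixes would keep 75%, 50% and 25% of the whole mouse intensity. Tnnt1 kept 77.0%, 46.5% and 24.2%, and Tnnt2 kept 80.1%, 48.2% and 30.5%. Those values lay at most 0.13 log2 from the weighted mean of each gene's own undiluted arrays. Tnnc1 kept less, 66.2%, 39.3% and 20.4%, and lay 0.18 to 0.36 log2 below its weighted mean. Tnni3 kept 72.2%, 40.8% and 27.2%, and lay 0.11 to 0.44 log2 below. Tnni1 kept 72.6%, 47.3% and 44.0%, where its own colon signal made 80.9%, 61.8% and 42.7% the weighted means.

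The fast genes kept more intensity than their weighted means in all 3 mixtures. Tnnc2 kept 82.9%, 73.7% and 50.2%, which was 1.0 log2 above its weighted mean at 75% colon. Tnnt3 kept 78.1%, 68.2% and 41.1%, and Tnni2 kept 82.3%, 55.0% and 36.0%. At 75% colon Tnnt3 was 0.69 log2 and Tnni2 0.51 log2 above the weighted mean. Expressed as an apparent colon share, the 75% mix read as 49.9% by Tnnc2, 59.3% by Tnnt3 and 64.3% by Tnni2, and as 73.4% to 81.5% by the other 5 genes. Over 170 genes at least 16-fold lower in colon, the median apparent share of that mix was 78.3% (quartiles 74.5% and 81.3%). These 170 include the troponins other than Tnni1 and Tnni3.

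**Figure D2:**
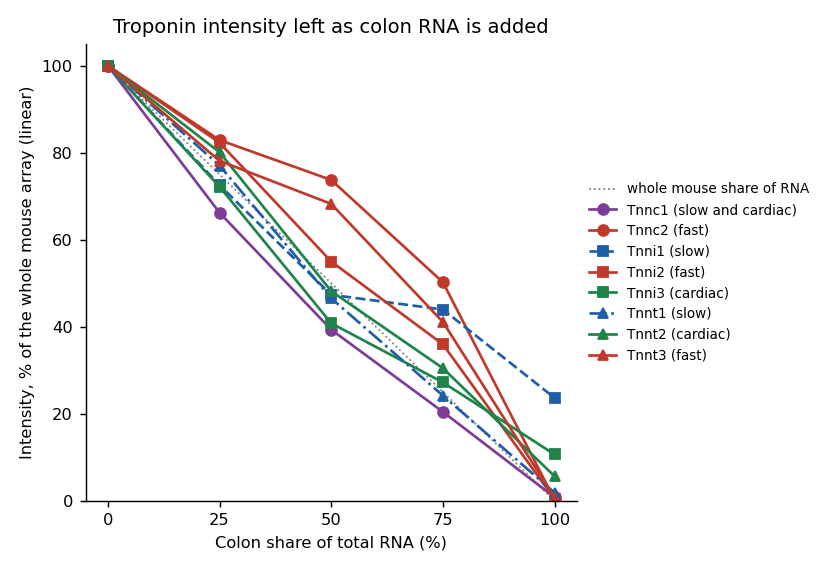
Intensity of each troponin gene as a percentage of its whole mouse array (linear, vertical axis) against the colon share of total RNA (%, horizontal axis); each point is 1 array and the dotted line is the whole mouse share of the RNA. The 3 fast genes ran above the line at every mixture, with 36.0% to 50.2% left at 75% colon, and Tnni1 ended at 23.6%.

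Among the brightest genes, brightness moved with this excess. The 3 fast genes had the highest whole mouse signals of the 8 (13.14 to 13.66, above those of 99.5% to 99.9% of probe sets on that array), although signals of different probe sets are not amounts of RNA. In a comparison chosen after these values were seen, the other genes at least 16-fold lower in colon were grouped by whole mouse signal. The 13 such genes above 13 log2 kept a median of 33.5% at 75% colon (quartiles 31.7% and 43.1%), and 2 of them passed the limma threshold. The 33 genes between 12 and 13 kept 24.1% and 19 passed, and the 45 genes between 11 and 12 kept 23.0% and 41 passed. Below that the share left did not go on falling: 36 genes between 10 and 11 kept 22.7%, 31 between 9 and 10 kept 23.6%, and 6 below 9 kept 26.6%. Tnni2 and Tnnt3 lay inside the quartiles of the brightest genes and Tnnc2 above them. The part of brightness in the result for the fast genes was not tested.

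**Figure D3:**
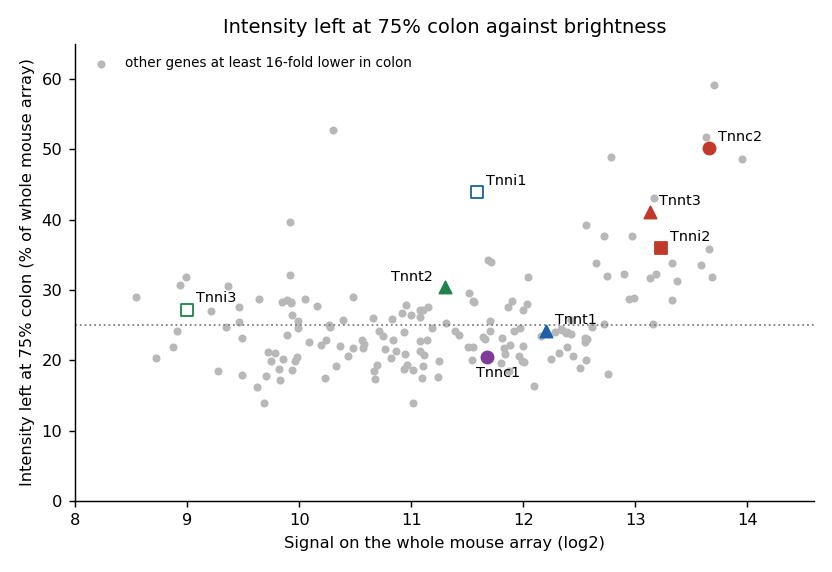
Intensity left in the 75% colon mix, as a percentage of the whole mouse array (vertical axis), against log2 signal on the whole mouse array (horizontal axis), for the 8 troponins (coloured) and other genes at least 16-fold lower in colon (grey); open symbols are Tnni1 and Tnni3, which differed by less than 16-fold, and the dotted line marks 25%. Tnnc2 kept 50.2%, Tnnt3 41.1% and Tnni2 36.0%, at whole mouse signals above 13.

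The outcome for the fast genes depended on the scale. Fitted on linear intensity, 8 of 8 troponins fell past the threshold, where 10.9% of all genes did so. Tnnc2 fell by 12043 intensity units from whole mouse to colon (SE 2062, limma adjusted p = 0.0423), from 12964 on the whole mouse array to 28.4 on the colon array. Tnni2 (limma adjusted p = 0.0115) and Tnnt3 (limma adjusted p = 0.0240) passed likewise. An exact permutation test over all 120 orders of the arrays adds nothing to the strict order already given, which by itself fixes the 2-sided p at 0.0167, the smallest that 5 arrays allow, for these 8 genes and for the other genes with such an order. With log2 signals below 6 raised to 6, only Tnni1 and Tnni3 passed (limma adjusted p of 0.0465 and 0.0300), where 5.24% of all genes fell past the threshold. Tnnt1 and Tnnt2 had no signal below 6, so their own values were unchanged although they no longer passed.

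Single arrays mattered to the log2 calls. Of the 8 genes, 1 passed without the whole mouse array (Tnni3), and 2 without the 25%, the 50% or the 75% mix (Tnni1 and Tnni3 each time). Without the colon array 5 passed: Tnnc1, Tnni2, Tnni3, Tnnt1 and Tnnt2. The share of all genes that fell past the threshold was 5.86% without the whole mouse array, 9.87%, 8.4% and 6.87% without the 25%, 50% and 75% mixes, and 5.1% without the colon array. In that fit, over the mixtures up to 75% colon, the slope of Tnni2 was −2.0 log2 (limma adjusted p = 0.0386). Those of Tnnt3 and Tnnc2 were −1.62 and −1.26, and those of Tnnc1 and Tnnt1 were −3.05 and −2.75. Each such fit has fewer residual degrees of freedom, and the calls over all probe sets dropped from 4409 to between 997 and 2998.

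Isoforms of a subunit were compared through the change of their ratio within each array, for 7 pairs. None of the 7 passed after adjustment over the pairs (exact permutation over 120 orders, 2-sided; lowest adjusted p = 0.117). With 5 arrays a pair at the smallest possible p of 0.0167 adjusts to 0.117 when it stands alone among 7, so no pair could pass on its own. The ratio of Tnni1 to Tnni3 had log2 values of 2.59, 2.60, 2.80, 3.28 and 3.74 and a slope of 1.19, so each array read higher than the one before (exact permutation p = 0.0167, adjusted 0.117). Tnnt1 relative to its cardiac counterpart Tnnt2 had 0.90, 0.84, 0.85, 0.56 and −0.71, with a slope of −1.40 (exact permutation p = 0.0333, adjusted 0.117), which was −0.40 without the colon array. Tnnc1 relative to Tnnc2 went from −1.99 in whole mouse to −3.29 at 75% colon, with a slope of −1.79 over the arrays without undiluted colon. In undiluted colon both genes lay below the highest Bacillus control, so their ratio there has no usable size, nor has the slope over all 5 arrays. Tnni1 relative to Tnni2 had −1.64, −1.82, −1.85 and −1.35 up to 75% colon. Since Tnni2 lay below that control in undiluted colon, the ratio there can be given only as at least 5.94 log2 above whole mouse. Its slope was 4.96 over the 5 arrays (exact permutation adjusted p = 0.311) and 0.33 without the colon array. Such a ratio shows unequal change of the signals of 2 probe sets, not a ratio of RNA amounts.

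**Figure D4:**
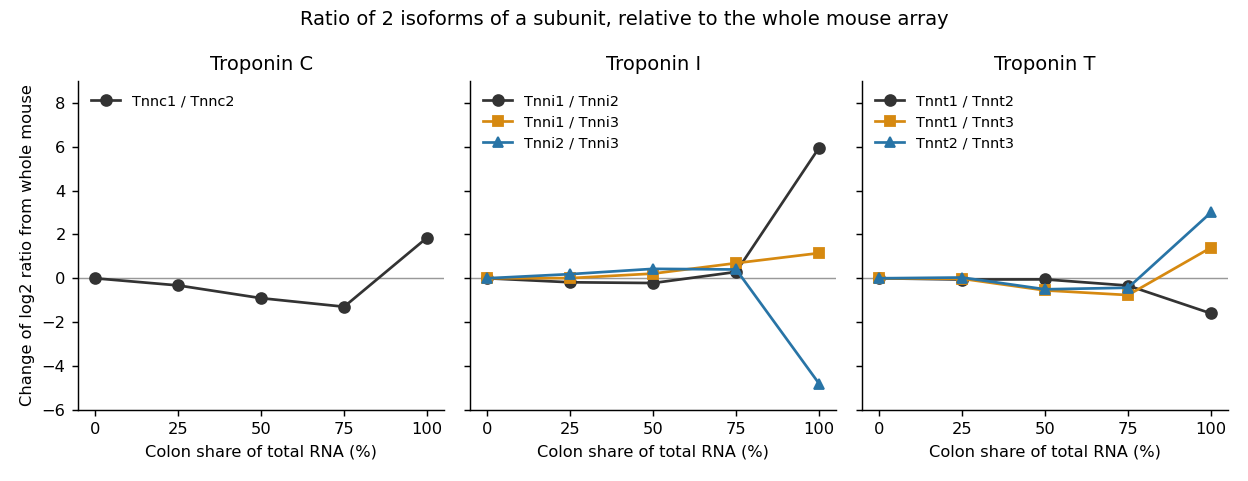
Change of the log2 ratio of isoforms within a subunit (vertical axis), relative to the whole mouse array, against colon share (%, horizontal axis), for the 7 pairs; each point is 1 array. The Tnni1 to Tnni3 ratio stood 1.15 above its start in undiluted colon, while the undiluted colon points of Tnnc1 to Tnnc2, Tnni1 to Tnni2 and Tnni2 to Tnni3 rest on signals below the highest Bacillus control.

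Other genes of muscle contraction were read from 6 lists. Over all genes, 14.5% fell and 9.8% rose past the limma threshold, the shares to set beside each list's counts. Leaving out an array lowered the counts given for them here. Of those past the limma threshold, 2 slow-fibre genes were left without the whole mouse array or the 25% or 50% mix, and 1 fast-fibre gene without the 25% mix. The smooth muscle list had 0 without the whole mouse array, the 75% mix or the colon array. Over the 5 such fits, 997 to 2998 of 22626 probe sets passed. At an unadjusted limma p under 0.05, the smooth muscle list had 6 to 8 genes in these fits, where 5874 to 7680 of 22626 probe sets did so. Among thin filament partners, 6 of 11 measured genes fell and 1 rose (median −1.94 log2). Nebl (3.44 in whole mouse and 3.54 in colon) lay below the highest Bacillus control on both arrays (5.23 and 5.21), which limits this median. Tmod4, a capping protein of the filament's pointed end, fell by 3.82 log2 and Xirp1, an actin-binding protein of striated muscle, by 2.20. Acta1, skeletal actin, had 13.95, 13.91, 13.60, 12.91 and 6.63 (limma adjusted p = 0.115), another bright gene that stayed high up to 75% colon. The gene that rose was Tpm2, the beta-tropomyosin to which troponin T binds in muscle (1.06 log2 in its brightest probe set), while its 4 probe sets disagreed, with slopes between −4.53 and 1.06.

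Further lists held companions of the slow and fast forms in muscle fibres. Of 10 slow-fibre genes, 8 fell and 1 rose (median −4.52 log2). Myl3, a slow and ventricular myosin light chain, fell by 5.97 log2 and Myoz2, a Z-disc protein, by 5.85. The 3 probe sets of Myl3 had slopes from −5.97 to −2.36. In colon its signal (5.15) lay below the highest Bacillus control on that array (5.21), which limits the size of its fall. Fhl1, a LIM-domain protein, had 12.03 in whole mouse and 11.67 in colon (limma adjusted p = 0.064). Atp2a2, the calcium pump of slow muscle and heart and of smooth muscle, rose by 0.83 log2, and its 4 probe sets ran from −1.13 to 0.83. Of 12 measured fast-fibre genes, 9 fell and none rose (median −4.70 log2), with the fast calcium pump Atp2a1 (−5.04) and calsequestrin Casq1 (−4.75) as the largest that passed. The fast light chains Mylpf (−6.85 log2, limma adjusted p = 0.0860) and Myl1 (−5.66, limma adjusted p = 0.099) and the heavy chain Myh1 (−6.54, limma adjusted p = 0.062) did not pass. The 3 probe sets of Myh1 had slopes from −6.54 to −0.03, and the set used carries the suffix x. Its colon signal (4.39) lay below the same control, which limits the size of the fall of Myh1. Mylpf kept 33.5% and Myl1 43.1% of their intensity at 75% colon, and Myh1 kept 25.5%.

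Of 14 cardiac genes, 7 fell and none rose (median −1.0 log2). Corin (4.15 in whole mouse and 3.58 in colon) and Tbx20 (4.86 and 4.98) lay below the highest Bacillus control on both arrays (5.23 and 5.21). Their signals cannot show a fall, which limits the median. Myh6, the alpha heavy chain of heart, fell by 5.60 log2 and Myl4, an atrial light chain, by 4.33, though the other probe set of each had a slope of −0.04 and 0.07. The colon signal of Myh6 (4.27) lay below the highest Bacillus control on that array, so its fall is a size against a signal not above the controls. Pln, the phospholamban that restrains the calcium pump, had 8.22 and 8.36 (limma adjusted p = 0.482). Among 9 measured transcription factors of muscle and heart, 5 fell and none rose (median −0.79 log2). Sox6 (4.24 in whole mouse and 3.99 in colon) lay below those controls on both arrays, which limits this median too. Myogenin (Myog), which drives muscle differentiation, fell by 3.37 log2 and Mef2c by 2.88 (0.09 in the highest of its 5 sets). Mef2d had 9.59 and 9.0 (limma adjusted p = 0.067).

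The smooth muscle and calmodulin list had a positive median. Of 9 measured genes, 3 rose, where 9.8% of all genes rose, and 1 fell (median 1.04 log2), and with each array centred on its median 7 passed in either direction in place of 4. Calponin (Cnn1), an actin-binding protein of smooth muscle, rose by 2.26 log2, the myosin light chain kinase Mylk by 1.68 and smooth muscle actin Acta2 by 0.74. Myl9, the regulatory light chain that this kinase phosphorylates, had 10.60 and 12.17 (limma adjusted p = 0.082). Cnn2, a more widely made calponin, fell by 1.48 log2. These lists were described by counts and medians, and differences between them were not tested.

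**Figure D5:**
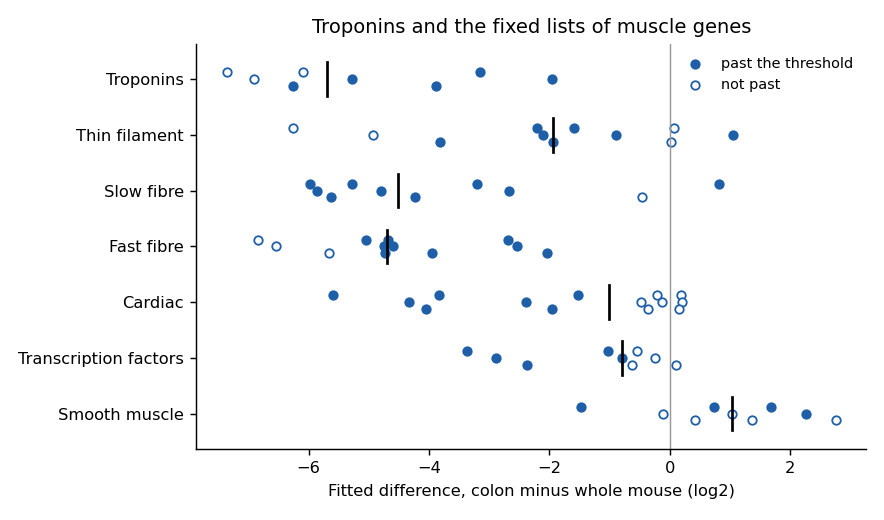
Fitted log2 difference, colon minus whole mouse (horizontal axis), for the 8 troponins and the genes of 6 lists; filled points passed the limma threshold, open points did not, and the black bar is the list's median. The troponin median was −5.69, and the smooth muscle median was 1.04.

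The genes whose profiles lay nearest to each troponin came from several organs. Likeness was the root mean square difference over the 5 arrays between log2 signals centred on each gene's own mean, among 12385 other genes, and all points share the same RNA pools. Nearest to Tnnc1 were Itgb1bp2, a muscle integrin-binding protein (0.08 log2), the Z-disc actinin Actn2 (0.10) and the liver's fibrinogen chain Fga (0.10). For Tnnc2 they were the perinatal myosin Myh8 (0.27), the apolipoprotein Apoa1 (0.38) and the epidermal protein Lor (0.52). For Tnni2 they were Mylpf (0.07), Lor (0.13) and Apoa1 (0.14), and for Tnnt3 the lung surfactant gene Sftpc (0.13), Igfbp1 (0.14) and the fetal liver's Afp (0.16). The slow Tnnt1 lay nearest to the airway gene Bpifa1 (0.06), Crct1 (0.08) and the muscle enzyme Pgam2 (0.08). Tnnt2 lay nearest to the liver's glucose-6-phosphatase G6pc (0.04), Npl (0.06) and arginase Arg1 (0.08), and Tnni3 to Gamt (0.05) and the pancreatic enzymes Cpa1 (0.06) and Cel (0.06). Tnni1 lay nearest to angiotensinogen Agt (0.03), Septin4 (0.04) and Mymk, a fusion protein of myoblasts (0.06). Among the troponins themselves, the closest were Tnni2 and Tnnt3, at 0.34 log2.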

How the data were processed

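Each of 5 arrays measured 1 mix of the 2 RNA pools, and samples were grouped by the colon share in their labels. The authors deposited log2 signals that RMA produced, per the submitters' processing notes, which give no version. RMA quantile-normalizes arrays to a shared distribution, so signals are relative within an array. Of 22690 probe sets, 64 controls were left out of the test. The array annotation paired 20380 with 1 gene, 691 with several and 1555 with none, and 20351 of the first were matched to RefSeq (GRCm38.p6) by gene identifier.

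Log2 signals were regressed on colon share with limma 3.58.1 in R 4.3.3, with eBayes, 3 residual degrees of freedom, no filter and 2-sided p-values, Benjamini-Hochberg adjusted over 22626 probe sets. The fit was tested on simulated straight-line changes in log2, which do not cover the curves or the steepest slopes of the troponins. Alternatives changed the centring, a floor or filter at log2 6, the variance trend, the scale, the probe set, the test, or left out an array. From each list the text names the 2 largest changes that passed and the brightest gene that did not, and for each troponin the 3 nearest profiles. Tpm2, Atp2a2, Myh1, Myl1, Acta2, Cnn2, Corin, Tbx20, Nebl and Sox6 were named after their values were seen. Bounds that raise colon signals to the highest Bacillus control were chosen after the data were seen. The members and lists were chosen with earlier results of these data known.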

Additional observations from a re-analysis of the deposited data

How the results depend on the processing

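The slopes of the 8 troponins kept their direction under every alternative run, and centring the arrays, the filter at a mean of log2 6, the variance trend and the median over probe sets left the same 5 genes past the threshold. Raising log2 signals below 6 to 6 left 1088 probe sets and 2 troponins past it. Tnnc1 (−5.22 log2), Tnnt1 (−5.27) and Tnnt2 (−3.88) no longer passed. Tnnt1 and Tnnt2 had no signal below 6, so their own values and slopes were unchanged. Their SE rose, from 1.15 to 1.39 and from 0.70 to 0.84. The differences between the undiluted arrays became −5.67 for Tnnc1, −7.66 for Tnnc2, −7.23 for Tnni2 and −3.0 for Tnni3. With the median over its probe sets, Tnni2 differed by −6.94. On the linear scale all 8 passed, Tnnc2 with −12043, Tnni2 with −9415 and Tnnt3 with −8484 intensity units. The exact permutation test, not adjusted over genes, gave those 3 its smallest p at their log2 slopes of −7.36, −6.91 and −6.10, which the strict order of their signals fixes. Each other probe set, an alternative added after the data were seen, kept the direction, and the dim Tnni2 set passed (−2.02). Centring moved the smooth muscle list from 4 to 7 genes past the threshold. It also turned the split of 1953 rises and 2456 falls over all probe sets into 3148 and 2325. The causes were not tested.

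Without 1 array at a time, the probe sets past the threshold numbered 997 to 2998 and the troponins 1 to 5. Slopes ran from −8.04 to −3.05 for Tnnc1, −2.10 to −1.67 for Tnni1, −9.56 to −2.0 for Tnni2, −6.83 to −2.75 for Tnnt1 and −4.86 to −2.35 for Tnnt2. Isoform slopes ran from −1.79 to 2.46 for Tnnc1 minus Tnnc2, −6.01 to 0.58 for Tnni2 minus Tnni3, −1.13 to 1.62 for Tnnt1 minus Tnnt3 and −0.73 to 3.60 for Tnnt2 minus Tnnt3, each changing sign without the colon array. Without it the slopes of Tnni1 minus Tnni2 and Tnnt1 minus Tnnt2 kept their sign but shrank to 0.33 and −0.40. With 4 arrays that permutation test cannot go below 0.0833. List counts ran from 2 to 5 for the thin filament, 2 to 8 for slow fibres, 1 to 8 for fast fibres, 3 to 6 for heart, 2 to 4 for transcription factors and 0 to 2 for smooth muscle by limma, where 6 to 8 genes had an unadjusted p under 0.05. At an unadjusted limma p under 0.05, the probe sets numbered 5874 to 7680 in these fits. No paired analysis was possible because each mix had 1 array and the labels give no replicate number. Signals near those of the Bacillus controls limit the size of the falls of Tnnc1, Tnnc2 and Tnni2, and of Myl3, Myh1 and Myh6 in the lists. The single array per mix limits every value.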
